A study of Mus musculus with 6 samples.

Results

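Collagen chain genes were examined in RNA-Seq libraries of distal colon from Gm31629-/- mice and WT littermates with dextran sulfate sodium (DSS) colitis. They were taken as every row of the expression table whose mouse symbol is Col, a number, the letter a and a number, which gave 44 of the 27546 listed genes. Gm31629-/- mice carry a deletion in the lncRNA gene Gm31629 on chromosome 1, with no tissue-specific driver named, so it is not limited to 1 cell type of the colon. The 3 Gm31629-/- and 3 WT mice were C57BL/6 (C57BL/6J in the methods), were 8 weeks old, drank 3% DSS for 7 days and were killed on day 8, with 1 library per mouse. DSS is a polymer that injures the colonic epithelium, and all 6 mice received it, so no library shows an uninjured colon. The comparison asks how the collagen transcripts of the injured colon differ between the genotypes.

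Collagens are the main structural proteins of the extracellular matrix, and each molecule is a helix of 3 chains in which glycine recurs in Gly-X-Y triplets. Fibrillar chains (types I, II, III, V, XI, XXIV and XXVII) form the tensile fibrils of the lamina propria and submucosa. Type IV chains form the network of basement membranes beneath epithelium and around vessels, smooth muscle and nerve. Type VI chains form beaded filaments near cells, and fibril-associated chains coat fibrils. Multiplexins (types XV and XVIII) lie at the outer face of basement membranes, transmembrane collagens sit in the cell surface, and short-chain collagens form sheet-like networks. In the gut most of these chains are made by fibroblasts, smooth muscle, pericytes, endothelium and glia.

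The difference between chains that form fibrils and chains that form networks can be read in their coding sequence. Longest runs without interruption of a glycine codon (GGN) at the first place of each Gly-X-Y triplet were 216 to 344 triplets in the 11 fibrillar genes and 39 to 66 triplets in the 6 basement membrane genes. Basement membrane genes instead held 13 to 18 separate runs of at least 10 triplets, against 2 to 3 in the fibrillar genes. Col1a1 and Col3a1 are shown from the start of their longest run, and Col4a1 and Col4a2 across the end of theirs, each over 33 codons of the coding sequence in GENCODE M21 transcripts (GRCm38), with glycine codons in capitals.
Col1a1, codons 168 to 200: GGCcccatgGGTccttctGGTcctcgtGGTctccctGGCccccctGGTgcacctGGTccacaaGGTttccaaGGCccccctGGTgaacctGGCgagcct
Col3a1, codons 164 to 196: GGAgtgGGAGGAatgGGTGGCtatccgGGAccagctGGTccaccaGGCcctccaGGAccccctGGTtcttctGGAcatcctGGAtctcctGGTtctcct
Col4a1, codons 145 to 177: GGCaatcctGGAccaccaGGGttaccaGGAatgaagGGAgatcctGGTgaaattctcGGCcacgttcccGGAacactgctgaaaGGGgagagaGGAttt
Col4a2, codons 957 to 989: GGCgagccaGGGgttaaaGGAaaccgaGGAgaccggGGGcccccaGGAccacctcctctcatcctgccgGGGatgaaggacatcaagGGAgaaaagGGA
In Col1a1 the capitals recur at even spacing, and in Col3a1 they do so after the first codons, where glycine also fills other places of the triplet. In the type IV pair the spacing breaks where the longest run ends.

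The 2 type IV genes are neighbours on chromosome 8 and are transcribed in opposite directions, with annotated starts 21 bases apart on opposite strands. Each start lies inside the other gene, and Col4a2 exons cover 0.295% of the Col4a1 exon bases. The promoter windows of the pair run from 250 bases before to 50 bases after each start from RefSeq on GRCm38.p6 and share 78 bases. They are shown because both genes rose in the data, as did every other tested chain. Capitals mark the CCAAT box and the GC box GGGCGG, each searched on both strands.
Col4a1, chr8:11312777-11313076, minus strand: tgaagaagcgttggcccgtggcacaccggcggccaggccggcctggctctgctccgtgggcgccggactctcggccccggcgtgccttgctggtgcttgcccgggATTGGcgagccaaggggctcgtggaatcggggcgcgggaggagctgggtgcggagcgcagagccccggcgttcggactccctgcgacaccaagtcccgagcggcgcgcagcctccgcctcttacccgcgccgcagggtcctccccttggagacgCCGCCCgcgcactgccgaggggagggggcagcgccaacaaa
Col4a2, chr8:11312555-11312854, plus strand: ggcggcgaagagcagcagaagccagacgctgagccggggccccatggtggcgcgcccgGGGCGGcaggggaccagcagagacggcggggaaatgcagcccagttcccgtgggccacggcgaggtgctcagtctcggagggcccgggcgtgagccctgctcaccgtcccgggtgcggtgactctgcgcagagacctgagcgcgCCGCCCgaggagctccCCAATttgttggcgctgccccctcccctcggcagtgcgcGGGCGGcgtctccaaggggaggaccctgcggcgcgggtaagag
The promoter table held 38 windows for 35 of the collagen chain genes. GGGCGG stood in 23 of these 38 (60.5%) and in 35.7% of all 32851 windows of the same length. CCAAT stood in 13 (34.2%) against 37.4% of all windows, and TATAAA in 5 (13.2%) against 13.6%. A match describes the letters of the window and not a bound site.

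The authors deposited FPKM values, which are fragments divided by gene length and library depth, and the depth behind them was estimated at 18005450 to 18795100 mapped fragments per library. WT libraries correlated with each other at 0.979 to 0.985 on the log2 scale and Gm31629-/- libraries at 0.915 to 0.937, while pairs across genotypes correlated at 0.777 to 0.853. Gm31629-/- mouse 1 stood apart from the other 5 libraries in that its 4 Y-linked genes were expressed and Xist was near 0 (0.00606 FPKM), while the others had no Y-linked signal and Xist at 8.35 to 13.8 FPKM. The study's methods state male mice, which the signal of Gm31629-/- mouse 1 matches and that of the other 5 libraries, with all WT mice, does not. By these genes, sex thus differs within the Gm31629-/- group. Gm31629-/- mouse 1 is therefore named wherever a result rests on it. The methods also speak of RNA pooled from 3 mice per group, whereas the table holds 1 column per mouse. Nothing else describes how the libraries relate to animals, so the p-values measure the spread between these 6 libraries. Markers of columnar epithelium, which lines the colon, were present in all libraries.

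Collagen chain transcripts were higher in Gm31629-/- than in WT colon across nearly the whole family. Summed over the 44 chains, FPKM was 307, 1099 and 759.7 in Gm31629-/- mice 1 to 3 and 37.95, 69.75 and 41.17 in WT mice 1 to 3, a ratio of the group means of 14.5. In 39 of the 44 chains every Gm31629-/- value lay above every WT value, and in none below, against 31.0% of all listed genes (36.3% of those tested below) with all values above and 12.6% with all below. Genes averaging at least 0.5 FPKM over the 6 libraries were tested with limma on log2(FPKM + 1). A call required both a p under 0.05 after Benjamini-Hochberg adjustment and a log2 fold change beyond 1 in either direction. Of the 26 collagen chains tested, 23 were called higher and 0 lower, against 18.4% of all 14657 tested genes called higher and 4.64% lower. All 26 had positive log2 fold changes, from 0.80 to 3.96, so no p threshold gives a lower chain, and voom on the recovered fragments gave 0 lower as well.

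Because 9 of these 26 chains passed the filter only through their level in Gm31629-/- mice, they had to differ, and the count over all 26 is a description. Among the 17 chains with a WT mean of at least 0.5 FPKM, 15 were called higher, beside 11.4% of the 12450 such genes. The median log2 fold change was 2.37 over the 26 chains (2.58 with Col9a2, which is 0 in WT, at its lower bound) and 3.03 over the 17, beside 0.15 and 0.01 over all genes of each kind. Without Gm31629-/- mouse 1 the count of called chains was 24. Log2 fold changes are on the log2(FPKM + 1) scale, which understates the change of low genes.

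**Figure D1:**
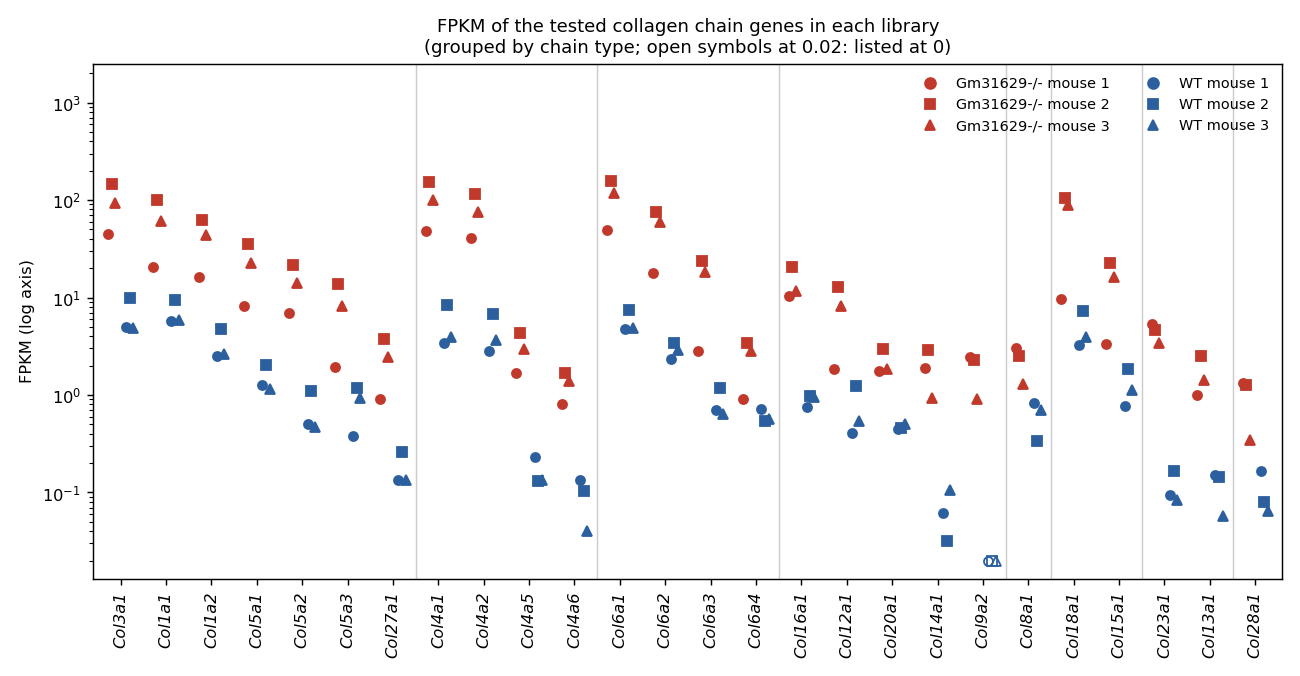
Values of the 26 tested collagen chain genes in the 6 libraries, in FPKM on a log axis, grouped by chain type and separated by vertical lines. Each symbol is 1 library, with red for Gm31629-/- and blue for WT, and open symbols at the bottom mark values listed at 0. Red symbols lie above blue ones in every chain drawn, and Gm31629-/- mouse 1 (red circles) lies lowest of the red in most chains but highest in Col23a1, Col9a2, Col8a1 and Col28a1.

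Fibrillar chains rose in all 7 genes tested of 11, of which 6 had a WT mean of at least 0.5 FPKM. Col3a1, the chain of type III collagen of soft tissues (chr1:45311538-45349706, plus strand), had 44.5, 145 and 93.5 FPKM in Gm31629-/- mice 1 to 3 and 4.98, 9.92 and 4.82 FPKM in WT mice 1 to 3. The groups did not overlap, the lowest Gm31629-/- value being mouse 1. Its log2 fold change was 3.56 ± 0.44 (SE, adjusted p = 0.00127). Col1a1, the alpha 1 chain of type I collagen and the main fibril protein of scar (chr11:94936224-94953042, plus strand), had 20.6, 101 and 60.7 FPKM against 5.70, 9.44 and 5.88. Mouse 2 was the highest library in both groups. The log2 fold change of Col1a1 was 2.71 ± 0.53 (adjusted p = 0.00661), and its ratio of means was 8.65, beside 12.5 for Col1a2 and 14.3 for Col3a1. Col1a2, the alpha 2 chain that joins Col1a1 in the same molecule, had 16.3, 62.8 and 43.5 FPKM against 2.49, 4.70 and 2.62, with a log2 fold change of 3.14 ± 0.47 (adjusted p = 0.00245).

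Type V chains, which set the width of type I fibrils, rose as well. Col5a1 had 8.20, 35.4 and 22.8 FPKM in Gm31629-/- mice and 1.27, 2.02 and 1.15 FPKM in WT (log2 fold change 3.03 ± 0.47, adjusted p = 0.00282). Col5a2, which lies next to Col3a1 on chromosome 1 with 24614 bases between the genes, had 6.99, 21.5 and 14 FPKM against 0.502, 1.09 and 0.471 (3.06 ± 0.37, adjusted p = 0.00117). Neither gene overlapped between the groups. Col5a3 had 1.93, 13.7 and 8.23 FPKM against 0.381, 1.19 and 0.938 (2.03 ± 0.55, adjusted p = 0.0231), and mouse 1 came close to the highest WT value. That call was lost without Gm31629-/- mouse 3 (adjusted p = 0.0764), WT mouse 1 (0.0784) or WT mouse 3 (0.0697), and in a fit without the filter (0.0521). Col27a1 had means of 2.36 and 0.176 FPKM (1.42 ± 0.32, adjusted p = 0.0114).

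The 4 fibrillar genes below the filter were Col2a1 and the type XI and XXIV chains, known mainly from cartilage and bone. They rested on few fragments. Col11a1 had 51, 43 and 10 fragments in Gm31629-/- mice and 0 in each WT library, which is at least 34.7-fold higher when the WT group is set to the 3 fragments that a count of 0 allows over the group. Col11a2 summed to 189 fragments against 49, and Col24a1 to 153 against 16. Col2a1, the chain of hyaline cartilage, had 8 fragments against 2, and the groups overlapped. Limits from a count of 0 cover counting error only.

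Basement membrane chains rose in all 4 genes tested of 6, of which Col4a1 and Col4a2 had a WT mean of at least 0.5 FPKM. The lowest Gm31629-/- value was above the highest WT value in all 6. Col4a1 (chr8:11198423-11312826, minus strand), which with Col4a2 makes the network found in every basement membrane, had 48.6, 153 and 99.1 FPKM in Gm31629-/- mice and 3.38, 8.41 and 3.97 FPKM in WT. Its ratio of means was 19.1 and its log2 fold change 3.96 ± 0.45 (adjusted p = 0.000931), which was the largest of the 26 tested chains on the log2(FPKM + 1) scale. By voom, Col9a2 (7.64), Col23a1 (5.28), Col14a1 (4.77) and Col5a2 (4.33) exceeded Col4a1 (4.23). Col4a2 (chr8:11312805-11449287, plus strand) had 40.7, 114 and 75.9 FPKM against 2.82, 6.72 and 3.66 (3.80 ± 0.41, adjusted p = 0.00076). Both genes whose shared promoter region is printed above kept the same order of libraries within each group. That order was not particular to the pair, since Col1a1, Col1a2, Col6a1, Col15a1 and Col18a1 had it too.

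Col4a5 and Col4a6, which form a network in smooth muscle and some epithelial basement membranes and lie head to head on the X chromosome with starts 1309 bases apart, were lower in level. Col4a5 had 1.69, 4.37 and 2.96 FPKM against 0.233, 0.132 and 0.135 (1.73 ± 0.26, adjusted p = 0.00244). Col4a6 had 0.818, 1.68 and 1.40 FPKM against 0.136, 0.104 and 0.040 (1.05 ± 0.18, adjusted p = 0.00445), and with libraries rescaled by their median ratio its log2 fold change of 0.996 fell just short of the limit. Col4a3 and Col4a4, the partner chains of kidney glomerular and some other basement membranes, were nearly silent. Col4a3 had 34, 7 and 4 fragments against 0, 1 and 0, and Col4a4 had 29, 11 and 4 fragments against 2, 1 and 1. In both genes Gm31629-/- mouse 1 held most of the fragments. Exons of another gene cover 5.65% of the Col4a3 exon bases.

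Beaded filament chains rose in 3 of the 4 genes tested of 6. Col6a1 (chr10:76708792-76726168, minus strand), 1 of the 3 chains of the classical type VI molecule, had 49.2, 156 and 117 FPKM in Gm31629-/- mice and 4.71, 7.43 and 4.89 FPKM in WT. It had the highest mean level of all chains in Gm31629-/- colon (107.5 FPKM), with a log2 fold change of 3.89 ± 0.41 (adjusted p = 0.000705). Its neighbour Col6a2 had 17.8, 76.0 and 59.9 FPKM against 2.33, 3.42 and 2.88 (3.53 ± 0.49, adjusted p = 0.00188). Col6a3, the third chain of that molecule, had 2.83, 23.6 and 18.1 FPKM against 0.705, 1.18 and 0.631 (2.74 ± 0.65, adjusted p = 0.0138). Col6a3 in Gm31629-/- mouse 1 was far below mice 2 and 3, and the call was lost without Gm31629-/- mouse 3 (adjusted p = 0.0512) or WT mouse 3 (0.0547).

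Col6a4, an alternative type VI chain, had 0.905, 3.39 and 2.81 FPKM against 0.723, 0.547 and 0.568 and missed the call (log2 fold change 0.98 ± 0.31, adjusted p = 0.0396). Without Gm31629-/- mouse 1 it was called (1.34, adjusted p = 0.0016). Col6a5 lay below the filter with 51, 252 and 126 fragments against 5, 10 and 0, and Col6a6 with 1, 22 and 0 fragments against 0, 1 and 0. The Col6a5 groups did not overlap and those of Col6a6 did.

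Fibril-associated chains rose in all 5 genes tested of 9, of which Col16a1 and Col12a1 had a WT mean of at least 0.5 FPKM. Col16a1, found near smooth muscle and fibroblasts (chr4:130047840-130099283, plus strand), had 10.5, 20.6 and 11.7 FPKM against 0.761, 0.971 and 0.954 (2.96 ± 0.25, adjusted p = 0.000374). Col12a1, a large chain bound to type I fibrils, had 1.86, 12.8 and 8.11 FPKM against 0.405, 1.25 and 0.538 (2.07 ± 0.55, adjusted p = 0.0207). The Col12a1 call was lost without Gm31629-/- mouse 3 (adjusted p = 0.0700), WT mouse 1 (0.0698) or WT mouse 3 (0.0744). Col14a1, a fibril coat chain of mature connective tissue, had 1.91, 2.88 and 0.939 FPKM against 0.062, 0.032 and 0.106, a ratio of means of 28.7 (1.39 ± 0.26, adjusted p = 0.00539). Col20a1 had 1.78, 2.93 and 1.84 FPKM against 0.451, 0.464 and 0.508 (1.09 ± 0.18, adjusted p = 0.00381).

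Col9a2, a type IX chain best known from cartilage (chr4:121039385-121055322, plus strand), was listed at 0 in each WT library and at 2.48, 2.29 and 0.915 FPKM in Gm31629-/- mice. These values rest on 141, 131 and 52 fragments, so it was at least 108-fold higher by the same limit (limma adjusted p = 0.00355). Its type IX partners were much lower, with 8 fragments in all for Col9a1 against 0 in WT, and 51 against 26 for Col9a3. Exons of Tcfl5 cover 6.07% of the Col9a3 exon bases. Of the 4 cartilage markers matched, Acan had a mean of 0.00726 FPKM in Gm31629-/- and 0 in WT colon, Hapln1 had 110 fragments against 40, Comp had 24 against 10, and Sox9 was called lower (-1.12, adjusted p = 0.00228). Col22a1 had 5, 25 and 34 fragments against 6, 1 and 1, and Col19a1 had a single fragment, and both overlapped between the groups.

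Both multiplexins rose, with a wide spread among Gm31629-/- mice. Col18a1, whose C-terminal fragment is endostatin (chr10:77052178-77166548, minus strand), had 9.72, 104 and 88.1 FPKM in Gm31629-/- mice and 3.27, 7.30 and 3.95 FPKM in WT. Mouse 1 was only just above the highest WT value. The log2 fold change was 3.05 ± 0.83 (adjusted p = 0.0225), and the call was lost without Gm31629-/- mouse 2 (adjusted p = 0.0604), Gm31629-/- mouse 3 (0.0787), WT mouse 1 (0.0738) or WT mouse 3 (0.0782), and in a fit without the filter (0.0512). Col15a1 had 3.35, 22.6 and 16.2 FPKM against 0.766, 1.84 and 1.13 (2.46 ± 0.59, adjusted p = 0.0149). Its call was lost without Gm31629-/- mouse 3 (adjusted p = 0.0546), WT mouse 1 (0.0543) or WT mouse 3 (0.0553).

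Transmembrane chains were called in both genes tested of 4, which had WT means under 0.5 FPKM and so entered the test through their level in Gm31629-/- mice. Col23a1 (chr11:51289920-51583918, plus strand) had 5.30, 4.67 and 3.44 FPKM against 0.094, 0.165 and 0.083, a ratio of means of 39.1 (2.28 ± 0.18, adjusted p = 0.000314). The 3 Gm31629-/- values were close to each other, all far above WT. Col13a1, found at neuromuscular and cell adhesion sites, had 1.00, 2.51 and 1.42 FPKM against 0.153, 0.145 and 0.058 (1.20 ± 0.22, adjusted p = 0.00568). Without Gm31629-/- mouse 2 the log2 fold changes of Col13a1 (0.98), Col4a6 (0.94) and Col20a1 (0.93) no longer passed 1. Col17a1, the hemidesmosome collagen of skin-type epithelia, summed to 66 fragments against 3, and Col25a1 to 86 against 12.

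Short-chain, anchoring fibril and remaining chains gave no call. Col8a1, a chain of vessel wall and smooth muscle, had 3.01, 2.54 and 1.29 FPKM against 0.826, 0.337 and 0.708 (log2 fold change 0.99 ± 0.25, adjusted p = 0.0178). Col28a1, known from glial cells of peripheral nerve, had 1.33, 1.26 and 0.344 FPKM against 0.165, 0.079 and 0.065 (0.80 ± 0.24, adjusted p = 0.0296). Neither gene overlapped between the groups, and the log2 fold change on the log2(FPKM + 1) scale kept both from a call. Their ratios of means were 3.65 and 9.47, and by voom their log2 fold changes were 1.87 (adjusted p = 0.0152) and 3.06 (adjusted p = 0.016). Without Gm31629-/- mouse 3 both were called (1.23, adjusted p = 0.00621, and 1.06, adjusted p = 0.00219). With any other mouse left out, the adjusted p of Col28a1 was above 0.05 (up to 0.0972). That of Col8a1 was above it without WT mouse 2 (0.0625) or WT mouse 3 (0.0556). Col7a1, the anchoring fibril chain that ties basement membrane to stroma, had 31, 104 and 90 fragments against 4, 22 and 11. Col8a2 summed to 96 fragments against 4, Col26a1 to 39 against 2, and Col10a1, the chain of hypertrophic cartilage, to 1 against 0. A chain with a mean under 0.5 FPKM cannot reach a log2 fold change of 1 on this scale, so none of these 18 could be called. In a fit without the filter Col8a2 (adjusted p = 0.00583), Col24a1 (0.00988) and Col17a1 (0.0484) passed the adjusted p alone.

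**Figure D2:**
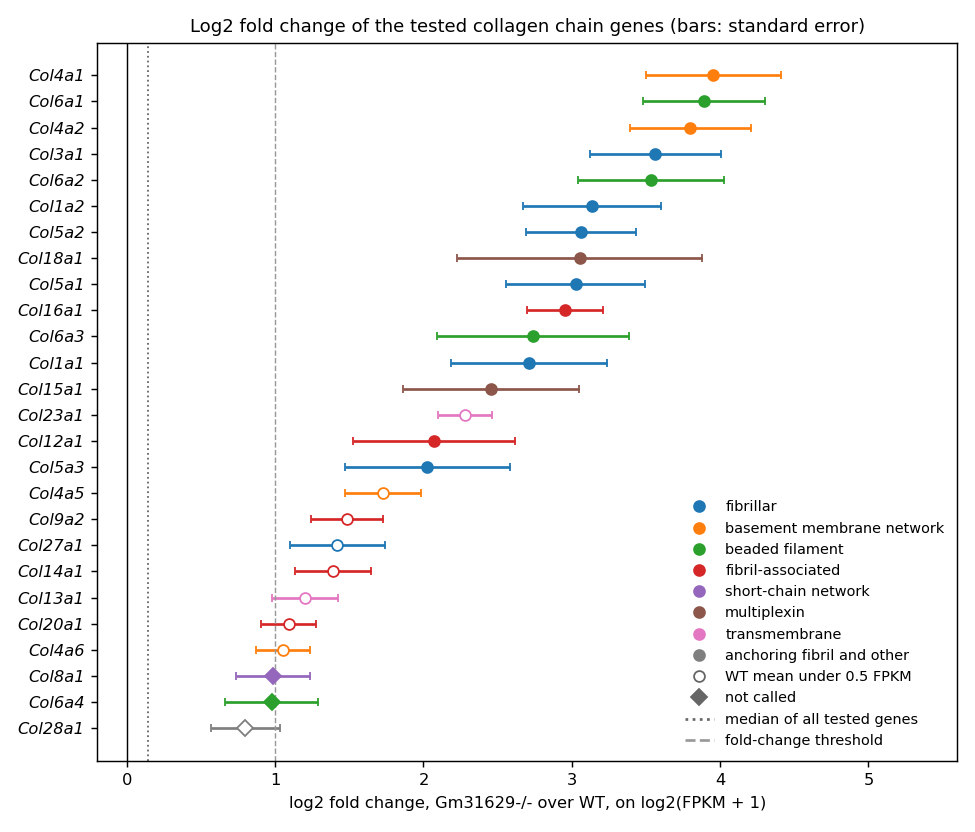
Log2 fold change of the 26 tested collagen chain genes, Gm31629-/- minus WT on the log2(FPKM + 1) scale, in order of size and coloured by chain type, with bars for 1 SE from limma, open symbols for a WT mean under 0.5 FPKM, diamonds for chains not called, a dotted line at the median of all tested genes (0.15) and a dashed line at 1. The values run from 0.80 in Col28a1 to 3.96 in Col4a1, and 23 of the 26 lie past the limit of 1 with an adjusted p under 0.05.

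The make-up of the collagen transcripts was compared as shares within each library, which do not depend on scaling. Fibrillar chains made up 32.7%, 34.9% and 32.4% of the summed collagen FPKM in Gm31629-/- mice and 41.2%, 41.3% and 39.3% in WT mice. The groups did not overlap, with a difference of -7.26 percentage points. Basement membrane chains made up 30.0%, 24.9% and 23.6% against 17.3%, 22.1% and 19.0%, a difference of 6.72 points, and beaded filament chains 23.2%, 23.7% and 26.1% against 22.4%, 18.1% and 21.8%, a difference of 3.57 points. Neither of these overlapped between the groups. Each of the 3 differences had an exact two-sided permutation p of 0.1, which is the smallest that 3 against 3 libraries can give, and an adjusted p of 0.267 over the 8 types. So none passed the test. Without Col6a1, the most abundant chain, the difference of the beaded filament share was 0.42 points.

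The remaining 5 types overlapped between the groups. Multiplexins made up 4.26% in Gm31629-/- mouse 1 and 11.5% and 13.7% in mice 2 and 3, against 10.6% to 13.1% in WT. Transmembrane chains made up 2.16% in Gm31629-/- mouse 1 and 0.693% and 0.664% in mice 2 and 3, against 0.366% to 0.716% in WT. Col1a1 moved most among single chains, from a mean share of 14.3% in WT to 7.95% in Gm31629-/- colon. Col6a1 had 15.2% against 11.7% in WT, Col4a1 had 14.3% against 10.2%, and Col3a1 had 13.3% against 13%. The first chain by mean share was Col1a1 in WT and Col6a1 in Gm31629-/- mice.

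**Figure D3:**
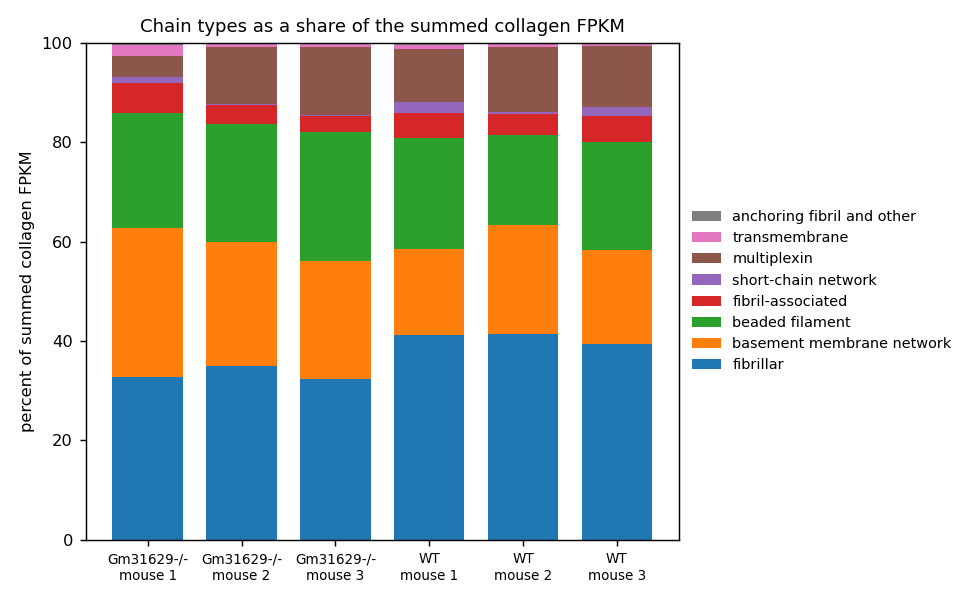
Share of each collagen chain type in the summed collagen FPKM of each library, in percent, as stacked bars for 3 Gm31629-/- and 3 WT mice. The fibrillar share (lowest segment) is 32.4% to 34.9% in Gm31629-/- and 39.3% to 41.3% in WT, and the multiplexin share of Gm31629-/- mouse 1 is 4.26%.

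Ratios of partner chains were compared next, since chains of 1 molecule are made for joint assembly and FPKM is per length. The length is that of all annotated exons, 6563 bases for Col1a1 (1453 codons) and 12426 bases for Col1a2 (1372 codons). A ratio is therefore no count of chains per molecule and is read only between the groups. Type I collagen holds more alpha 1 than alpha 2 chains. Col1a1 over Col1a2 was 1.27, 1.60 and 1.40 in Gm31629-/- mice and 2.29, 2.01 and 2.24 in WT mice. Every Gm31629-/- ratio lay below every WT ratio, with a difference of the mean log2 ratios of -0.62 (0.50 ± 0.17 against 1.12 ± 0.10, SD, n = 3 each, exact permutation p = 0.1, adjusted p = 0.2 over 8 ratios). Col1a1 over Col3a1 was 0.464, 0.694 and 0.649 against 1.15, 0.952 and 1.22, a difference of -0.89 on the log2 scale with the same p values. Col5a1 over Col5a2 was 1.17, 1.65 and 1.62 against 2.54, 1.84 and 2.43, a difference of -0.62 with the same p values. These 3 ratios and that of fibrillar to basement membrane chains (1.09, 1.41 and 1.37 against 2.37, 1.87 and 2.07, difference -0.71, adjusted p = 0.2) did not overlap between the groups. None of these ratios could pass the test at this number of libraries. Col1a1 also enters the fibrillar sum, so that ratio is not separate from the ratios of Col1a1.

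Other partners kept ratios that overlapped between the groups. Col4a1 over Col4a2 was 1.19, 1.34 and 1.31 against 1.20, 1.25 and 1.09, a difference of 0.12 on the log2 scale (exact permutation p = 0.3). Col6a1 over Col6a2 was 2.76, 2.06 and 1.95 against 2.02, 2.18 and 1.70 (difference 0.19, exact permutation p = 0.5). Col6a3 over Col6a1 was 0.0576 in Gm31629-/- mouse 1 and 0.129 to 0.159 in the other 5 libraries, with a difference of -0.40 over all mice (exact permutation p = 0.7). Col4a5 over Col4a6 was 2.07 to 2.60 in Gm31629-/- mice and 1.27 to 3.36 in WT mice (difference 0.21, exact permutation p = 0.7). A ratio of Col8a1 to Col8a2 was set as well and could not be tested, because Col8a2 was 0 in WT mouse 3.

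**Figure D4:**
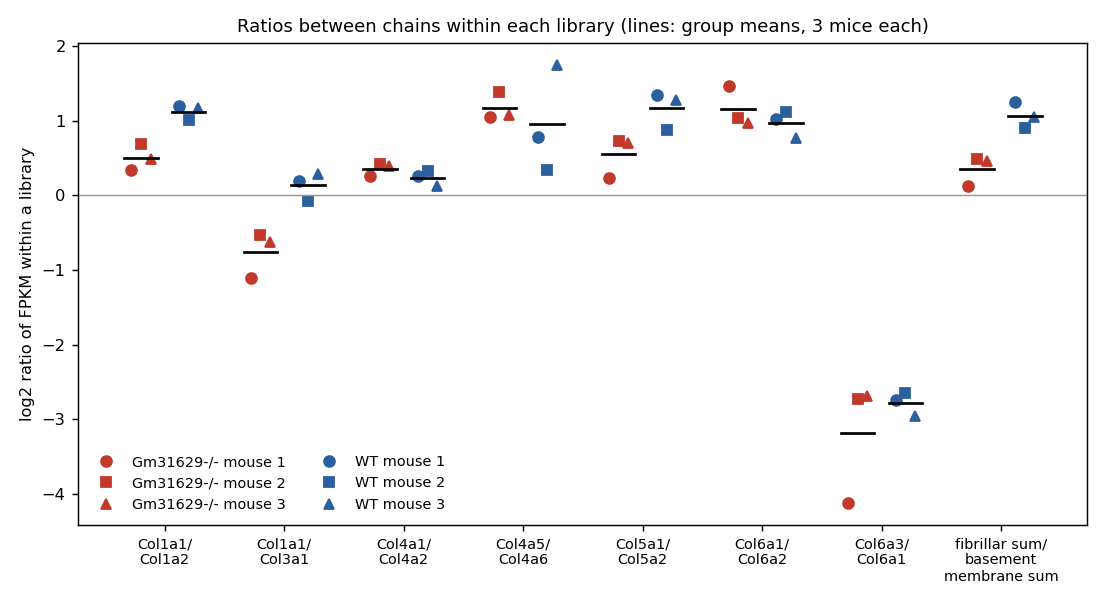
Log2 ratio of partner chains within each library, with red for Gm31629-/- and blue for WT and short lines at the group means. The red and blue symbols separate for Col1a1/Col1a2, Col1a1/Col3a1, Col5a1/Col5a2 and fibrillar over basement membrane sums, and mix for the other 4 ratios, with Gm31629-/- mouse 1 lowest in Col6a3/Col6a1.

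Gm31629-/- mice differed from each other by chain. Mouse 1 was the lowest of the 3 in 28 of the 44 chains and mouse 2 the highest in 29, while mouse 1 was the lowest in 31.6% of all tested genes. The 44 include 18 chains below the filter, whereas that share covers tested genes only, and no such share was taken for mouse 2. Relative to the mean of mice 2 and 3, the level in mouse 1 was 0.101 for Col18a1, 0.136 for Col6a3, 0.173 for Col15a1, 0.176 for Col5a3 and 0.178 for Col12a1. Tested type I, III and IV chains lay between 0.256 (Col1a1) and 0.531 (Col4a6), whereas Col4a3 and Col4a4, below the filter, were highest in mouse 1. Col14a1 was level at 0.998, and Col23a1 (1.31), Col9a2 (1.54), Col8a1 (1.57) and Col28a1 (1.66) were higher in mouse 1. The chains highest in mouse 1 numbered 10 of 44, beside 38.1% of all tested genes. Of these 10 chains, the other 6 had at most 51 fragments in that library.

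Genes that modify, export, cross-link and bind collagen were taken from fixed lists of 45 symbols, of which 44 were matched. Of 35 tested, 23 were called higher and 2 lower, beside 18.4% and 4.64% of all tested genes. Among the 23 with a WT mean of at least 0.5 FPKM, 12 were called higher, beside 11.4% of such genes, and 2 lower. Chain modification and folding genes gave 10 higher and 1 lower of 16 tested (7 and 1 of the 13 above that WT mean). Serpinh1 (HSP47), the chaperone dedicated to procollagen, had 26.7, 188 and 150.3 FPKM in Gm31629-/- mice and 5.80, 8.34 and 5.42 FPKM in WT (log2 fold change 3.64 ± 0.68, adjusted p = 0.00555). Its order of libraries was that of Col1a1 in the Gm31629-/- mice. Fkbp10, a prolyl isomerase (2.73, adjusted p = 0.000632), and Plod2, a lysyl hydroxylase of telopeptides (2.67, adjusted p = 0.000663), rose too. Plod2 had a WT mean of 0.104 FPKM and so passed the filter only through Gm31629-/- mice. P4hb, protein disulfide isomerase and the beta subunit of prolyl 4-hydroxylase, fell from 442.8, 371.8 and 478.7 FPKM in WT to 146.6, 204.9 and 223 FPKM (-1.18 ± 0.21, adjusted p = 0.00436). Its enzyme partners P4ha1 and P4ha2, the catalytic subunits, were 16.2 against 7.39 and 2.60 against 0.866 FPKM on average and missed the call (log2 fold changes 0.97 and 0.92). Colgalt1, a galactosyltransferase of hydroxylysine, did not pass (-0.31, adjusted p = 0.28).

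Export and cleavage genes gave 4 higher of 7 tested (2 of the 5 above that WT mean). Those were led by Pcolce, an enhancer of procollagen C-proteinase (2.43, adjusted p = 0.00306), Bmp1, the C-proteinase itself (2.26, adjusted p = 0.00114), and Adamts2, an N-proteinase (1.98, adjusted p = 0.00113). Adamts2 had a WT mean of 0.103 FPKM and so passed the filter only through Gm31629-/- mice. The lowest were the export genes Sec23a (-0.08, adjusted p = 0.749) and Mia2 (0.06, adjusted p = 0.819), whose signs turned under other settings.

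All 5 cross-linking genes were called higher, of which Loxl1 and Loxl2 had a WT mean of at least 0.5 FPKM, while Lox, Loxl3 and Loxl4 passed the filter only through Gm31629-/- mice. Loxl1, the lysyl oxidase relative tied to elastic fibres, had 13.3, 27.6 and 15.2 FPKM against 0.492, 1.15 and 0.290 (3.55 ± 0.31, adjusted p = 0.000403). Lox, the lysyl oxidase of collagen fibrils, had 13.3, 7.43 and 4.40 FPKM against 0.180, 0.358 and 0.0996 (2.84 ± 0.34, adjusted p = 0.0011), and here mouse 1 was the highest. Loxl2, which acts on type IV collagen, had 4.14, 25.2 and 18 FPKM against 1.07, 1.60 and 1.28 (2.57 ± 0.56, adjusted p = 0.00998), with mouse 1 the lowest. Loxl3 (1.30, adjusted p = 0.00249) and Loxl4 (1.20, adjusted p = 0.0171) had the smallest log2 fold changes on this scale, whereas by voom Loxl2 was the smallest (3.25, beside 3.43 for Loxl3 and 3.99 for Loxl4). Loxl4 lost its call without Gm31629-/- mouse 3 (adjusted p = 0.0518), WT mouse 1 (0.0547) or WT mouse 3 (0.0640), and without Gm31629-/- mouse 2 its log2 fold change was 0.95.

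Collagen receptor genes moved in both directions, with 4 higher and 1 lower of 7 tested (1 and 1 of the 3 above that WT mean). Ddr2, a tyrosine kinase receptor of fibrillar collagen in mesenchymal cells, had 7.88, 14.3 and 7.16 FPKM against 0.0934, 0.198 and 0.126 (3.18 ± 0.26, adjusted p = 0.000316). Mrc2, the uptake receptor for collagen (2.26, adjusted p = 0.00585), and Itga1, the integrin alpha 1 subunit (2.23, adjusted p = 0.000415), rose as well. Ddr2, Mrc2 and Itga1 had WT means of 0.139, 0.458 and 0.336 FPKM and so passed the filter only through Gm31629-/- mice. The calls of these genes are therefore a description. Itga2, the alpha 2 subunit that epithelium uses to bind collagen, had 3.49, 8.05 and 2.92 FPKM against 15.5, 15.1 and 10.8 and fell by 1.43 on the log2 scale (adjusted p = 0.0122). Ddr1, the epithelial relative of Ddr2, had 25.6, 29.0 and 42.2 FPKM against 56.8, 66.5 and 61.9 and was lower without overlap but not called (-0.95, adjusted p = 0.00952). With libraries rescaled by their median ratio its log2 fold change was -1.11.

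Marker sums of the cells that make collagen were higher in Gm31629-/- than in WT colon, as was the collagen sum. Summed smooth muscle markers were 1165 to 1794 FPKM in Gm31629-/- and 21.7 to 38.3 FPKM in WT, a ratio of means of 50.4, with 9 of 10 called higher (7 of the 7 with a WT mean of at least 0.5 FPKM). For fibroblast markers the sums were 186.6 to 371.7 against 10.7 to 20.3 FPKM (16.9-fold, 10 of 10 called and 6 of the 6 above that WT mean). Sums for pericytes were 95.0 to 197.9 against 3.49 to 7.17 FPKM (27.3-fold, 7 of the 7 tested of 8, and 2 of 2 above that WT mean). For endothelium they were 52.5 to 89.6 against 2.25 to 6.37 FPKM (17.4-fold, 8 of 8, and 2 of 2). Enteric glia and Schwann cells had 12.0 to 33.9 against 0.174 to 0.285 FPKM (102-fold, 6 of the 6 tested of 7, with no glial gene above that WT mean). These counts stand beside 18.4% of all tested genes called higher and 11.4% of those above that WT mean. The collagen sum, 14.5-fold, thus stood near the fibroblast, endothelial and leukocyte sums (leukocytes 14.5-fold, given below). It stood below the smooth muscle, pericyte and glial sums. Most of the leukocyte sum was Lyz2 (403.6 of 483.6 FPKM on average in Gm31629-/- and 27.7 of 33.5 in WT mice). Of the 6 leukocyte markers, only Cd3e overlapped between the groups. Collagen over fibroblast markers was 1.65, 2.96 and 3.34 in Gm31629-/- mice and 3.55, 3.44 and 2.66 in WT mice, which overlapped. Collagen over leukocyte markers was 0.942, 1.54 and 1.84 against 1.32, 1.78 and 1.26, which overlapped as well. So did collagen over pericyte and over endothelial markers. Collagen over smooth muscle markers was 0.171, 0.824 and 0.652 against 1.75, 1.82 and 1.64, which did not overlap, nor did collagen over glial markers. Gm31629-/- mouse 1 had the highest smooth muscle sum and the lowest collagen sum of its group.

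Other lists moved as well. Their counts called higher stand beside 18.4% of all tested genes and 11.4% of those with a WT mean of at least 0.5 FPKM. Leukocyte markers summed to 325.8 to 711.7 FPKM against 28.7 to 39.1 FPKM (14.5-fold, 5 of 6 called higher and 4 of the 5 above that WT mean). Adipocyte markers summed to 143.8 to 512.2 against 13.6 to 57.0 FPKM (5 of the 6 tested of 7, and 4 of 4). Mesothelial markers summed to 3.44 to 41.9 against 2.51 to 3.00 FPKM (2 of the 3 tested of 5, and 1 of 2), with Wt1 at 0 in WT. Columnar epithelium markers summed to 6473 to 8695 against 13970 to 15760 FPKM, a ratio of 0.499. Of these, 5 of 10 were called lower, beside 4.64% of all tested genes. The members with the largest means were Krt8 (2042 against 4198 FPKM) and Car1 (1249 against 4692 FPKM). Epcam (1109 against 1104 FPKM) and Cdh1 (394.6 against 404.8 FPKM) kept their level, and they, Krt18 and Krt20 overlapped between the groups. Squamous epithelium markers were low, at 1.89 to 4.77 against 0.874 to 1.04 FPKM (3.19-fold without overlap), with 0 of the 2 tested of 8 called. Krt5, Trp63 and Dsg3 were at 0 in WT, with 13, 7 and 97 fragments in Gm31629-/- mice. Krt14 was higher without overlap, and Krt1, Krt4, Krt10 and Krt13 overlapped between the groups. Skeletal muscle markers were 106 FPKM in Gm31629-/- mouse 1 and 8.12 to 39.7 FPKM in the others, nearly all from Acta1. Of these, 1 of the 2 tested of 5 was called, and 0 of the 1 above that WT mean. The called gene was Ckm, with 208 against 2 fragments, Tnnt3 had 43 against 3, and Myh1 was at or near 0. The cartilage list was 7.19 to 8.63 against 15.2 to 20.5 FPKM, nearly all Sox9, which epithelium also expresses. In tissue RNA, more cells of a type and more RNA per cell cannot be told apart, and the part of these cell types in the collagen result was not tested.

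**Figure D5:**
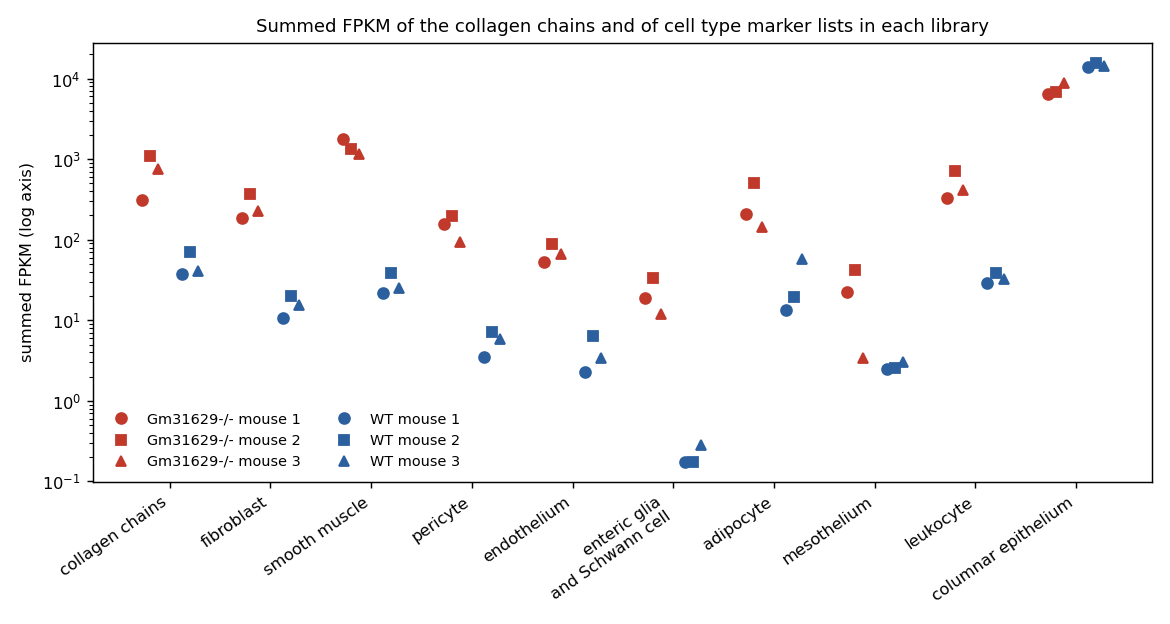
Summed FPKM of the collagen chains and of cell type marker lists in each library, on a log axis, with red for Gm31629-/- and blue for WT. Sums of smooth muscle, pericyte, fibroblast, endothelial and glial markers and of the collagen chains lie higher in all 3 Gm31629-/- mice than in all 3 WT mice, and the columnar epithelium sum lies lower.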

How the data were processed

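RNA-Seq was performed on distal colon of 3 Gm31629-/- and 3 WT mice. The table the authors deposited gives FPKM for 27546 genes, with a column for each mouse. The submitters' processing notes name HISAT2 2.1.0, HTSeq 0.6.0 and GRCm38, and counting by strand is not stated, so overlapping genes may share fragments. The study compared genes with DEGseq, which was not repeated here. Gm31629 itself was not analysed here.

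Symbols and exon lengths came from GENCODE M21 and matched 27488 genes. Fragments and depth (18005450 to 18795100 per library) were recovered from the FPKM steps, with 96.3% to 97.3% of the low values (20 fragments or fewer) whole to within 0.1. Fragments summed over genes exceeded this depth in all 6 libraries, and the cause was not tested. Precision from depth covers counting error only.

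Differences were tested by limma (version 3.58.1, R 4.3.3, eBayes with trend) on log2(FPKM + 1) in the 14657 genes averaging at least 0.5 FPKM, and p-values were adjusted over these by Benjamini and Hochberg. Shares and ratios were tested with exact permutation tests in scipy 1.17.1. Replicates differed by more than counting noise, so none was merged. The scripts were tested on simulated data, and figures were drawn with matplotlib 3.10.9.

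All collagen chains were accounted for. In each list of processing and receptor genes, the 3 largest and 2 smallest log2 fold changes among tested genes were named, and P4ha1, P4ha2, named marker genes and the chains singled out were picked after seeing their values. The members and lists were chosen with earlier results of these data known. Alternatives were TPM scale, median ratio scaling, a filter at 5 FPKM or none, a pseudocount of 0.1, eBayes with no trend, a replicate block, omission of 1 mouse at a time, voom on recovered fragments, and adjusted p alone. For ratios a pseudocount of 0.1 FPKM was tried, and for shares the sum without the most abundant chain. A filter on the WT mean and the count of chains without overlap were added after seeing the data.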

Additional observations from a re-analysis of the deposited data

How the results depend on the processing

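The count of collagen chains called higher was 23. It was 13 with a mean FPKM of at least 5, and 15 with a mean of at least 0.5 in WT and 39 by groups without overlap, both chosen after seeing the data. Leaving out 1 mouse gave 18 to 24, and the other settings 21 to 26 (22 with median ratio scaling, which moved the median of all tested genes from 0.15 to 0.02). The count called lower was 0 under every setting run. Over 368 comparisons of single chains with an alternative, 336 kept their side of the adjusted p of 0.05, 32 lost it and 0 changed direction. Processing and receptor genes called higher numbered 23, and 10 with a mean FPKM of at least 5. Leaving out 1 mouse gave 18 to 26 called higher. Mia2 (0.06) was -0.091 with median ratio scaling and -0.084 to 0.156 when 1 mouse was left out (below 0 without Gm31629-/- mouse 1 or, at -0.061, WT mouse 3), and Sec23a (-0.08) was -0.234 to 0.003, the latter without WT mouse 2. The share of fibril-associated chains (-0.40 points) ranged from -1.28 to 0.20 when 1 mouse was left out, that of multiplexins (-2.20 points) from -4.15 to 0.59, the log2 ratio Col4a5/Col4a6 (0.21) from -0.10 to 0.61, and Col6a3/Col6a1 (-0.40) from -0.64 to 0.070. The highest multiplexin and Col6a3/Col6a1 values were those without Gm31629-/- mouse 1. In the fibrillar share the range was -8.07 to -6.79 points and in Col1a1/Col1a2 -0.71 to -0.54. The replicate numbers share no stated source. Deviations from the group means correlated at 0.036, -0.108 and 0.014 between same-numbered libraries, so these libraries were not treated as pairs. With the number as a replicate block, 23 collagen chains were called higher. Within such pairs the smallest exact p for a share or ratio is 0.25. Low chains are limited by depth, since a value of 0 allows up to 3 fragments.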
